A study of Mus musculus with 4 samples.

Results

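The 10 genes described here are factors of the pluripotent state, Pou5f1, Sox2, Nanog, Sall4, Esrrb, Zfp42, Utf1, Dppa4, Lin28a and Dnmt3b. Their RNA was read in Flk-1+ cells of a differentiation culture, with no array of undifferentiated cells to compare. The genes were chosen by symbol, and all 10 were found among the 18193 genes of the table, on 17 probe sets that each carry 1 symbol. For each gene the probe set with the highest mean over the 4 arrays was read, and the others are shown beside it. The arrays measured total RNA of 2 sorted populations, Flk-1+/Etv2+ with 2 arrays and Flk-1+/Etv2- with 2 arrays, each numbered 1 and 2. Both populations came from TT2 mouse embryonic stem cells that were heterozygous for a Venus reporter knocked into Etv2, taken at day 5 of differentiation on OP9 stromal cells. Flk-1 is the VEGF receptor encoded by Kdr, and Etv2 is an ETS factor that starts the blood and endothelial programmes. Both populations thus carried the reporter allele and had been selected for Flk-1, and they differed in the Venus signal. How many clones or cultures the arrays stand for is not given in the labels, so the p-values below reflect array-to-array spread, part or all of which may be technical.

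Pluripotency is held by a small network of transcription factors. POU5F1 and SOX2 bind DNA side by side and keep each other, NANOG and many further genes active. ESRRB, ZFP42 and KLF factors belong to the naive state of the early epiblast, and UTF1 and DPPA4 are chromatin-associated proteins of pluripotent cells. When cells leave pluripotency the naive factors are lost early, while POU5F1, SALL4, LIN28A and DNMT3B persist in the primed epiblast and for a time in the germ layers.

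The octamer core and its composite with a Sox site are shown first. Some members described below hold the core in their promoters, and among them only Nanog holds the composite. RefSeq promoters of GRCm38.p6, from 250 bases before to 50 bases after a gene's start, were found for 8 of the 10 members, all but Sall4 and Dppa4. The octamer core ATGCAAA, searched on both strands, was present in the promoters of 3 members, Sox2, Nanog and Zfp42. By entry these were 4 matches, 2 of them for Nanog, against 4.63% of all 32851 promoter entries. The longer composite, a Sox site CATTGT followed by any 1 base and then ATGCAAA, also searched on both strands, was present in 2 entries (0.00609%), both of them overlapping entries for Nanog. The 3 promoters are printed 5′ to 3′ on the gene's strand, with the octamer core or the composite in capitals. The composite in Nanog contains the octamer core, and both read on the opposite strand. These matches describe letters and not binding.
Sox2 (GRCm38.p6 chr3:34649745-34650044, + strand): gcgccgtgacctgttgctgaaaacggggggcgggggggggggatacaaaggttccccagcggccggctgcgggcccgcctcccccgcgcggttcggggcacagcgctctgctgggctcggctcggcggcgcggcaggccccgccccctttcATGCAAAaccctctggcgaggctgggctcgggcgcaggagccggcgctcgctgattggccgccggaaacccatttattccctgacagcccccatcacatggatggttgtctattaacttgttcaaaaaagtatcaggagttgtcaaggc
Nanog (GRCm38.p6 chr6:122707239-122707538, + strand): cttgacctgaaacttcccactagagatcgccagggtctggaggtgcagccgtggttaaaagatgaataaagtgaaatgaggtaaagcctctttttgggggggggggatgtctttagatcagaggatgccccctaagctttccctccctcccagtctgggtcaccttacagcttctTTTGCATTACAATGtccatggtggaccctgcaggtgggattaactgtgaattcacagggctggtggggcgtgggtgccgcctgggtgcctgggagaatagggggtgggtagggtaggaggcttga
Zfp42 (GRCm38.p6 chr8:43306960-43307259, - strand): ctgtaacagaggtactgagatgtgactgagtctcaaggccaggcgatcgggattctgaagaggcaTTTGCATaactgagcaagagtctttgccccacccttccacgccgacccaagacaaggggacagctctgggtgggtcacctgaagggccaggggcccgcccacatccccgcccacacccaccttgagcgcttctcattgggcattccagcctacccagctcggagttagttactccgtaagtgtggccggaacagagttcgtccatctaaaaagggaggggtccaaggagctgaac
The matches began 99 bases before the start of Sox2, 75 before that of Nanog in the entry printed and 185 before that of Zfp42. In the other Nanog entry the match began 151 bases before the start. All 3 genes with a match had a lower mean in Flk-1+/Etv2+ than in Flk-1+/Etv2- cells, by values given below, and none passed the test. Among members with a promoter entry and no match, Pou5f1, Lin28a and Dnmt3b also had a lower mean, and Esrrb and Utf1 a higher one. Whether a match bears on the direction was not tested.

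All values below are deposited log2 expression values, and differences are Flk-1+/Etv2+ minus Flk-1+/Etv2- in log2 units with the standard error (SE) of the limma fit over all genes. A level is compared only within a probe set, since probe sets differ in how brightly they bind. The genes of the sort were read as a check. Etv2 measured 12.64 and 12.41 in Etv2+ cells and 12.03 and 11.87 in Etv2- cells. The difference was 0.57 (SE 0.13), 1.49-fold higher in Etv2+ cells, and it did not pass (limma adjusted p = 0.185). Etv2 signal was thus bright in both populations, and the Etv2- cells were not without it. Kdr measured 12.64 and 12.81 in Etv2+ cells and 12.51 and 12.68 in Etv2- cells, so that both populations held their Flk-1 signal. Pdgfra, a receptor of early mesoderm that was not used in the sort, measured 8.55 and 7.67 in Etv2+ cells and 10.11 and 9.41 in Etv2- cells, a difference of -1.65 (SE 0.38). The array medians lay between 5.46 and 5.52, and the number of arrays limits the precision. An exact two-sided permutation test of 2 arrays against 2 cannot go below p = 0.333 and was not used to call genes.

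Pou5f1 was the core factor with the clearest gap between the populations. It measured 7.998 and 7.150 in Etv2+ cells on arrays 1 and 2, against 9.092 and 8.350 in Etv2- cells. Both Etv2+ arrays lay below both Etv2- arrays, and the closest pair was array 1 of the Etv2+ cells and array 2 of the Etv2- cells. The difference was -1.15 (SE 0.38), 2.21-fold lower in Etv2+ cells, with a 95% interval from -2.14 to -0.15, and it did not pass over all genes (limma adjusted p = 0.354). In a sorted population fewer cells with Pou5f1 RNA and less of it per cell cannot be told apart, and the same holds for every gene below.

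Sox2, the partner of POU5F1 that is also a factor of neural precursors, measured 6.47 and 6.06 in Etv2+ cells, against 7.34 and 6.62 in Etv2- cells. The groups did not overlap, but the upper Etv2+ array and the lower Etv2- array were close. The difference was -0.71 (SE 0.29; 95% interval from -1.46 to 0.04; limma adjusted p = 0.449). Nanog, the homeobox factor that stabilises the naive state, measured 5.35 and 4.01 in Etv2+ cells, against 6.61 and 5.06 in Etv2- cells. Here the groups overlapped, because array 1 of the Etv2+ cells was above array 2 of the Etv2- cells. The mean difference of Nanog, -1.15 (SE 0.68), was as large as that of Pou5f1, but its 95% interval ran from -2.93 to 0.62 and it did not pass (limma adjusted p = 0.619).

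**Figure D1:**
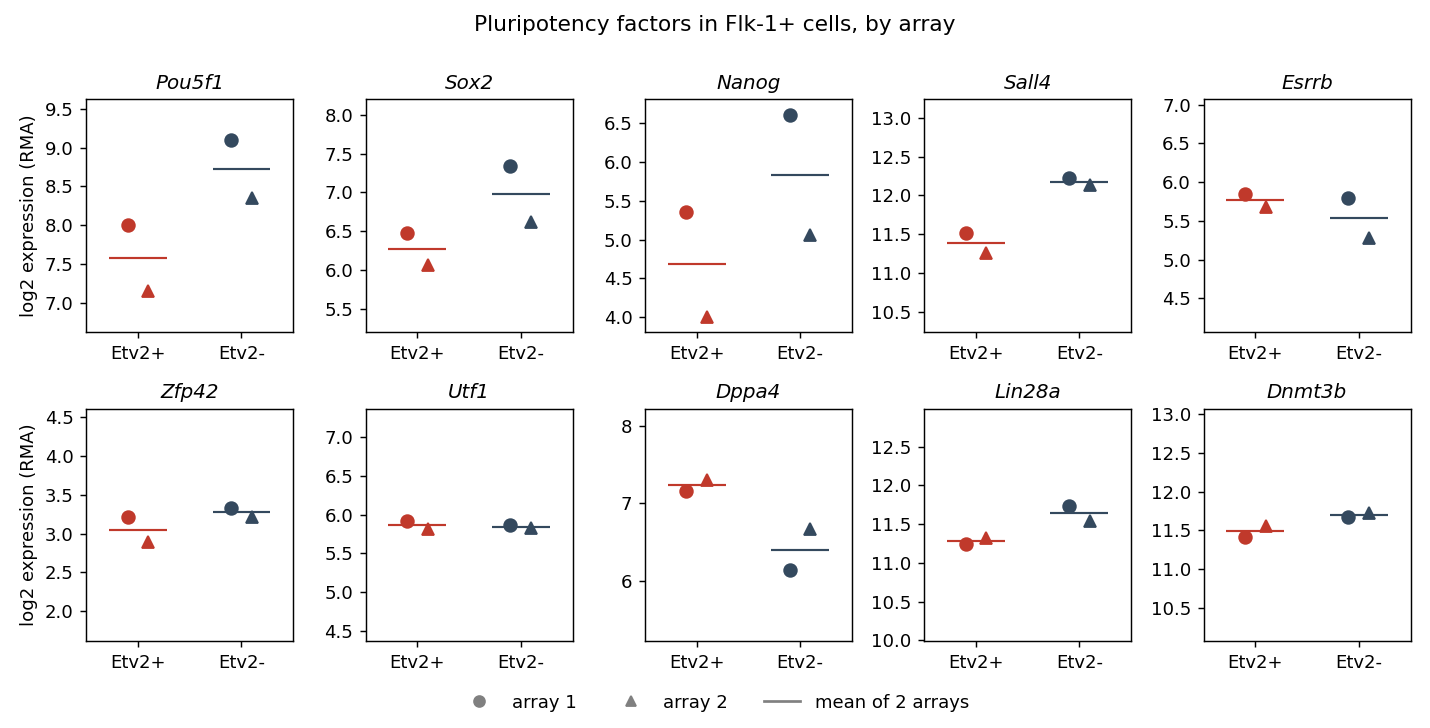
Log2 expression (RMA, vertical axis) of the 10 members on each array, with Etv2+ cells in red and Etv2- cells in blue, circles for array 1, triangles for array 2 and bars for the mean of 2 arrays. Every panel spans the same number of log2 units. Pou5f1, Sox2, Sall4, Lin28a and Dnmt3b have both Etv2+ arrays below both Etv2- arrays, Dppa4 has them above, and the Nanog arrays overlap.

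The other members differed in how well their arrays agreed. Sall4, a zinc finger factor of pluripotent cells, early mesoderm and blood precursors, measured 11.52 and 11.25 in Etv2+ cells, against 12.22 and 12.13 in Etv2- cells. Arrays of 1 population lay close together and the populations were well apart. The difference was -0.79 (SE 0.13), 1.73-fold lower in Etv2+ cells, with a 95% interval from -1.12 to -0.46. By p-value Sall4 stood at place 303 of the 18193 genes, ahead of the other 9 members, and it did not pass either (limma adjusted p = 0.114).

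Lin28a encodes an RNA-binding protein that blocks maturation of let-7 microRNAs. It measured 11.24 and 11.32 in Etv2+ cells, against 11.74 and 11.54 in Etv2- cells. The groups were apart by a small margin, and the signal was bright in both. The difference was -0.36 (SE 0.11), 1.29-fold lower in Etv2+ cells, with a 95% interval from -0.65 to -0.07 (limma adjusted p = 0.317). Dnmt3b, the de novo DNA methyltransferase of the primed epiblast, measured 11.42 and 11.56 in Etv2+ cells, against 11.67 and 11.72 in Etv2- cells. Its groups were also apart, by less still, with a difference of -0.20 (SE 0.10) and a 95% interval from -0.46 to 0.05 (limma adjusted p = 0.533).

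Dppa4 was the member whose arrays ran the other way. It measured 7.16 and 7.31 in Etv2+ cells, against 6.13 and 6.66 in Etv2- cells. Both Etv2+ arrays lay above both Etv2- arrays, and the Etv2- arrays were the more spread. The difference was 0.84 (SE 0.20), 1.79-fold higher in Etv2+ cells, with a 95% interval from 0.32 to 1.36, and it did not pass (limma adjusted p = 0.213). DPPA4 is known to act together with its paralogue DPPA2 in pluripotent cells. Dppa2 itself, named after its values were seen, measured 4.06 and 3.55 in Etv2+ cells and 3.85 and 3.50 in Etv2- cells, dim and overlapping.

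Zfp42, Esrrb and Utf1 had arrays of the populations that met or overlapped on the probe sets read. Zfp42, also known as Rex1, measured 3.21 and 2.89 in Etv2+ cells, against 3.33 and 3.21 in Etv2- cells. On every array this lay below the 25th percentile of the array, which was between 3.85 and 3.88, and the upper Etv2+ and the lower Etv2- value were equal. Esrrb, an orphan nuclear receptor, measured 5.85 and 5.68 in Etv2+ cells, against 5.80 and 5.28 in Etv2- cells, with overlap. Utf1 measured 5.92 and 5.81 in Etv2+ cells, against 5.86 and 5.82 in Etv2- cells, and its arrays were nearly level. The differences were -0.22 (SE 0.14) for Zfp42, 0.22 (SE 0.20) for Esrrb and 0.02 (SE 0.09) for Utf1, with 95% intervals from -0.59 to 0.15, from -0.30 to 0.74 and from -0.22 to 0.27. Detection calls were not used here, so it is not known which of these probe sets were above background, and a difference near background is compressed.

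Counted over the members, 0 of 10 passed a limma adjusted p of 0.05, as did 0 of all 18193 genes (0%). When limma modelled the variance by a robust trend over mean level, 81 genes were called higher and 31 lower, among them 0 members. At an unadjusted p under 0.05 there were 3 members lower in Etv2+ cells, Pou5f1, Sall4 and Lin28a, against 4.64% of all genes, and 1 member higher, Dppa4, against 7.07%. With the arrays centred on their medians the members' counts were again 3 and 1, and the shares of all genes were 3.36% lower and 8.44% higher. The count of lower members was 1 without array 2 of the Etv2+ cells (2.45% of all genes), 1 without array 1 of the Etv2- cells (2.90%) and 5 without array 2 of the Etv2- cells (3.58%). The count of higher members was 2 without array 1 of the Etv2- cells (5.38%). The arrays of the populations were apart in the lower direction for 5 of 10 members, against 17.0% of all genes, and in the higher direction for 1 of 10, against 22.4%. A mean difference of at least 2-fold was present in the lower direction for 2 of 10, Pou5f1 and Nanog, against 0.423% of all genes, and in the higher direction for 0 of 10, against 0.599%. Of these 2, Nanog had overlapping groups and a mean over the arrays of 5.26, below every array median. The median difference of the members was -0.29, beside 0.01 over all genes.

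The 3 core factors also differed between the arrays of 1 population. Nanog was higher on array 1 than on array 2 by 1.35 in Etv2+ and by 1.55 in Etv2- cells, in both cases more than its mean difference between the populations. For Pou5f1 the gap was 0.85 in Etv2+ and 0.74 in Etv2- cells, and for Sox2 it was 0.41 and 0.72. Sall4, by contrast, had gaps of 0.27 and 0.09 on the probe set read, but of -1.38 and -1.19 on its further probe set. For Dppa4 the gap had the other sign, -0.14 in Etv2+ and -0.53 in Etv2- cells. For Lin28a the sign differed between the populations on the probe set read, at -0.08 and 0.20. The further Lin28a probe set had gaps of 0.47 and 0.39. In all, 7 of 10 members were higher on array 1 in both populations, beside 45.9% of all genes.

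**Figure D2:**
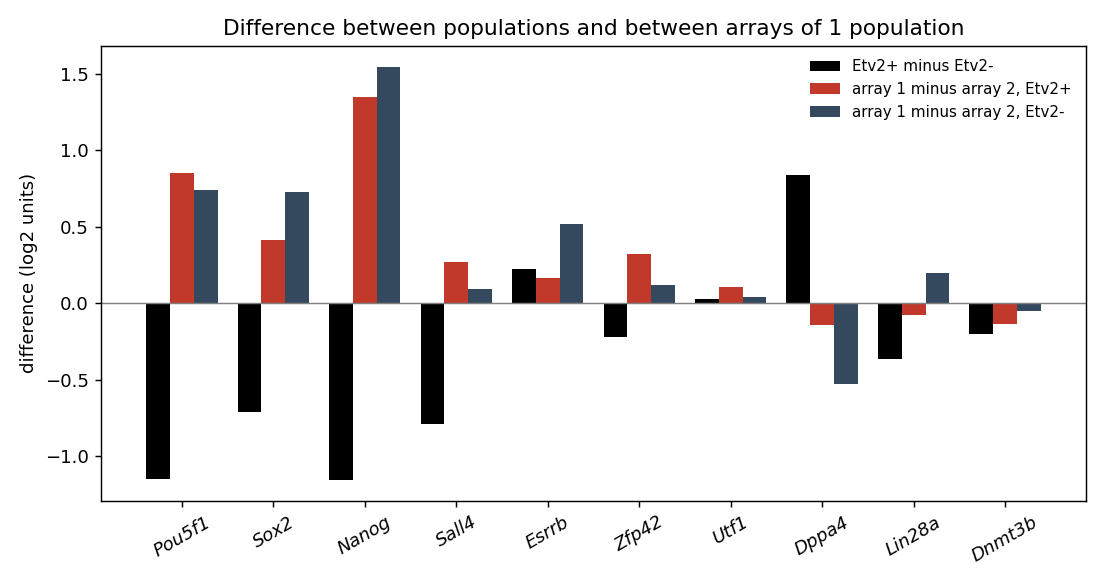
Differences in log2 units (vertical axis) for each member, with the mean difference Etv2+ minus Etv2- in black, and array 1 minus array 2 within Etv2+ cells in red and within Etv2- cells in blue. For Nanog both array gaps, 1.35 and 1.55, exceed the size of the difference between the populations. For Sall4 they are far smaller on the probe set shown, though not on its further probe set.

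Other measures moved with the array number as well. Stroma markers were read in view of the OP9 layer, and which cells their RNA came from was not tested. Their mean level was 6.40 and 5.62 on arrays 1 and 2 of the Etv2+ cells. On those of the Etv2- cells it was 6.49 and 5.97. Of the 12, 9 were higher on array 1 in both populations, beside 45.9% of all genes. Between the populations the same list had a median of -0.16, from Fabp4 at -0.64 (SE 0.92) to Dcn at 0.13 (SE 0.12). In it 2 of 12 were lower at an unadjusted p under 0.05, beside 4.64% of all genes. They were Cxcl12 at -0.63 (SE 0.11) and Col1a1 at -0.54 (SE 0.18), both named after their values were seen. The 3′ minus 5′ signal of the Tfrc control, a measure of RNA integrity and labelling, was 1.91 and 1.21 on arrays 1 and 2 of the Etv2+ cells and 1.46 and 0.85 on those of the Etv2- cells. That of Pcx was 0.92 and 0.58 on the Etv2+ arrays and 1.06 and 0.85 on the Etv2- arrays. That of Actb did not follow the array number, at 0.47 and 0.51 in Etv2+ and 0.41 and 0.40 in Etv2- cells, and that of Gapdh lay between -0.04 and 0.0014 on all arrays. Primitive streak and nascent mesoderm markers were higher on array 1 in both populations for 8 of 8 genes, beside 45.9% of all genes. The part of these measures in the gaps of the core factors was not tested.

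Where a member had several probe sets, these mostly pointed the same way. The further Sall4 probe set, whose design (suffix _s_at) lets it hybridise to similar RNAs, measured 7.94 and 9.32 in Etv2+ cells, against 9.06 and 10.25 in Etv2- cells. Its arrays overlapped and were higher on array 2, opposite to the brighter Sall4 probe set, and its difference was -1.02 (SE 0.63). The further Lin28a probe set measured 8.55 and 8.08 in Etv2+ cells, against 9.05 and 8.66 in Etv2- cells. These groups did not overlap, and the difference was -0.54 (SE 0.23). The further Dnmt3b probe set differed by -0.26 (SE 0.23).

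Esrrb was the member whose probe sets disagreed. Its brightest probe set, with a design (suffix _x_at) open to cross-hybridisation, gave the overlapping values above. Another measured 5.249 and 4.938 in Etv2+ cells, against 4.345 and 4.600 in Etv2- cells. There both Etv2+ arrays lay above both Etv2- arrays, with a difference of 0.62 (SE 0.16; limma adjusted p = 0.392 over 34945 probe sets). The remaining Esrrb probe set gave -0.02 (SE 0.12), and the further Utf1 probe sets gave 0.09 (SE 0.10) and 0.15 (SE 0.12). All of these were dim.

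**Figure D3:**
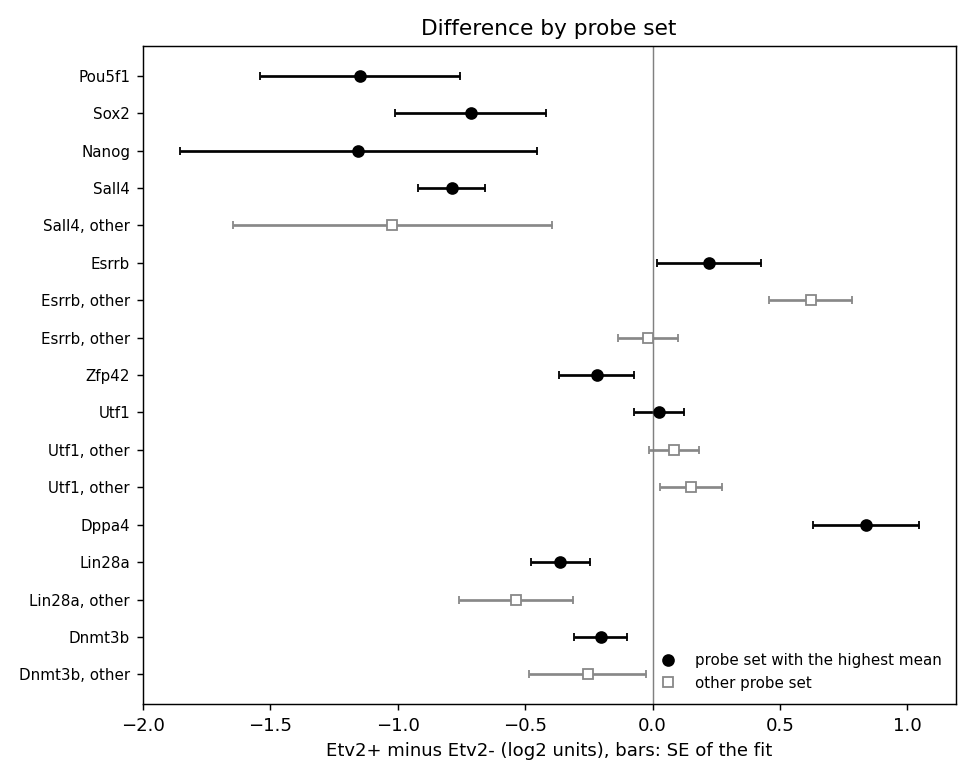
Difference Etv2+ minus Etv2- in log2 units (horizontal axis) for the 17 probe sets of the members, with the SE of the fit as bars, filled circles for the probe set with the highest mean of each gene and open squares for the others. The probe sets of Sall4, Lin28a and Dnmt3b lie on 1 side, and those of Esrrb run from -0.02 to 0.62.

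Genes of the primed epiblast, the state in which Pou5f1 persists after the naive factors are lost, had a median difference of -0.60. Of these, 9 of 9 were below 0, as were 8560 of all 18193 genes. Pou3f1 and Foxd3, named after their values were seen, were nearly level at -0.02 (SE 0.11) and -0.03 (SE 0.12), and Foxd3 was dim. At an unadjusted p under 0.05 there were 4 of 9 lower and 0 higher, beside 4.64% and 7.07% of all genes. Of the 9, 0 passed the adjusted threshold. Otx2, a homeobox factor of the epiblast and anterior neural plate, measured 8.14 and 7.52 in Etv2+ cells, against 9.80 and 9.00 in Etv2- cells, a difference of -1.57 (SE 0.34). Zic2 and Zic5, zinc finger factors, differed by -0.60 (SE 0.12) and -0.52 (SE 0.13). Tdgf1, the Nodal co-receptor Cripto, was the fourth, at -1.22 (SE 0.38).

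Further naive pluripotency genes had a median of 0.02, close to that of all genes. At an unadjusted p under 0.05, 2 of 15 were higher, 2 lower and 11 neither, beside 7.07% higher and 4.64% lower over all genes. Several of the 15 were dim in both populations, so the median takes in genes that may be near background. Nr0b1, Tcl1 and Fbxo15, named after their values were seen, lay below the 25th percentile on every array. Tbx3, a T-box factor that also acts in mesoderm, measured 10.055 and 10.002 in Etv2+ cells, against 10.854 and 10.500 in Etv2- cells, a difference of -0.65 (SE 0.15). Prdm14, dim in both, differed by -0.75 (SE 0.23) and Tfcp2l1 by 0.38 (SE 0.12). Nr5a2, named after its values were seen, was the other higher gene at 0.97 (SE 0.32), and its Etv2+ arrays were far from each other, at 6.43 and 5.49. The naive list thus had members in both directions.

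The lists around Lin28a and Dnmt3b had medians near 0. Of 12 genes of the Lin28 and let-7 axis, 0 reached an unadjusted p under 0.05, beside 11.7% of all genes, and the median was -0.02. Those with the smallest p were Dis3l2, an exonuclease of uridylated let-7 precursors, at 0.21 (SE 0.09), the microRNA processing factor Dgcr8 at -0.19 (SE 0.10) and the let-7 target Hmga2 at -0.28 (SE 0.15). Of 7 DNA methylation enzymes, 0 reached it and the median was -0.01. The largest difference among them by p was that of Tet1, which oxidises methylcytosine, at -0.30 (SE 0.12), followed by the maintenance methyltransferase Dnmt1 at 0.16 (SE 0.11) and the cofactor Dnmt3l at 0.15 (SE 0.12).

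Paralogues of the members, with Lin28b and Dnmt3a again among them, also had a median near 0. Of 11 measured, 0 reached an unadjusted p under 0.05, beside 11.7% of all genes, with a median of -0.04. Sall3 and Sall1 differed by -0.21 (SE 0.09) and -0.36 (SE 0.21), in the direction of Sall4, while Sall2, named after its values were seen, was at 0.06 (SE 0.14). Sox1, dim in both populations, differed by 0.35 (SE 0.16).

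**Figure D4:**
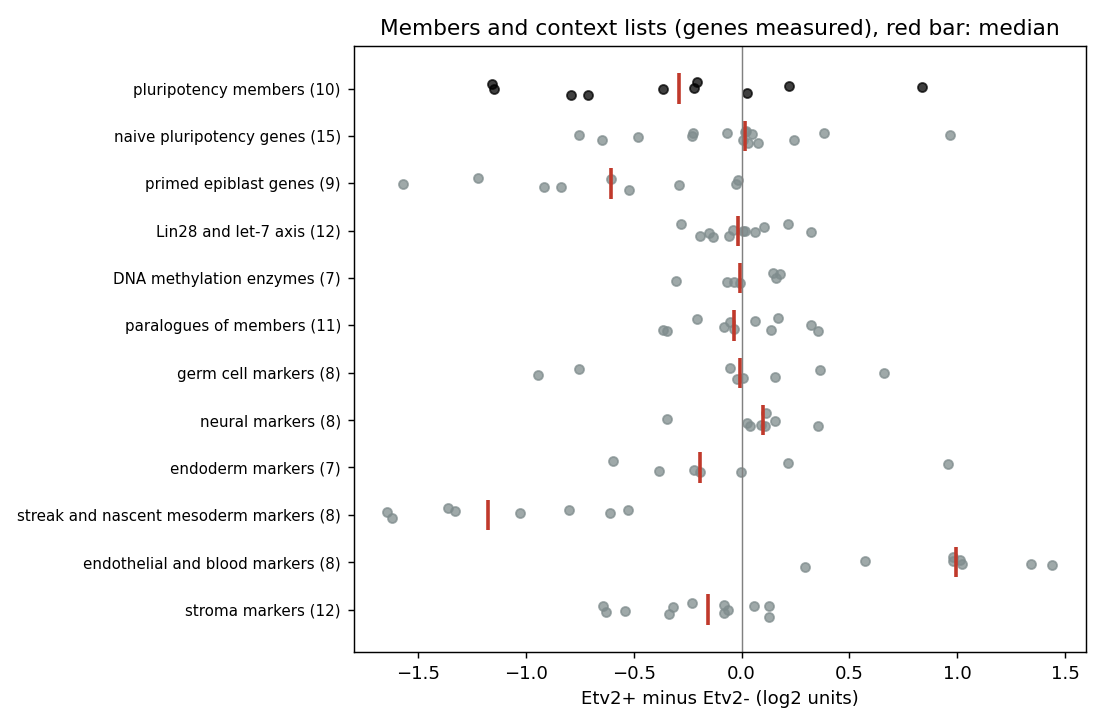
Difference Etv2+ minus Etv2- in log2 units (horizontal axis) for the 10 members and for the genes of each further list, a point for each gene and a red bar for the median. The members' median is -0.29, that of primed epiblast genes -0.60, that of further naive genes 0.02 and that of streak and nascent mesoderm markers -1.18.

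Markers of other cells that can express the members were read beside them. Germ cell markers had a median of -0.01, from Tfap2c at -0.94 (SE 0.43) to Kit, which early blood precursors also express, at 0.66 (SE 0.10). Neural markers had a median of 0.10, from Sox3 at -0.34 (SE 0.33) to Sox1. Of these, 0 of 8 reached an unadjusted p under 0.05, beside 11.7% of all genes. Their mean level was 5.02 and 4.97 in Etv2+ cells and 5.07 and 4.79 in Etv2- cells. Germ cell markers Ddx4 and Dazl and neural markers Olig2 and Zic1, named after their values were seen, lay below the 25th percentile on every array. Both medians thus take in genes that may be near background. Endoderm markers had a median of -0.19, from Cer1 at -0.59 (SE 0.25) to Sox17, a factor of endoderm and endothelium, at 0.96 (SE 0.12).

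The lists with the largest medians were those of mesoderm and its vascular derivatives. The streak and nascent mesoderm of the mouse embryo still express Pou5f1 and Nanog, and the markers of these cells had a median of -1.18. All 8 measured were below 0, beside 8560 of all 18193 genes. These markers ran from Mesp1, a factor of nascent mesoderm, at -1.64 (SE 0.11) to Evx1 at -0.53 (SE 0.25). Of the 8, 4 were lower at an unadjusted p under 0.05, beside 4.64% of all genes. Their mean level was 8.79 and 8.24 in Etv2+ cells and 9.96 and 9.30 in Etv2- cells. Endothelial and blood markers had a median of 0.995, from Gata1 at 0.29 (SE 0.15) to Fli1 at 1.44 (SE 0.10). Among them 7 of 8 were higher at an unadjusted p under 0.05, beside 7.07% of all genes. The part of either group of cells in the members' differences was not tested.

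Likeness over the 4 arrays was measured as the distance between values centred on each gene's mean, among 10179 genes with a mean of at least 6. With 4 arrays this is a description only. Nearest to Pou5f1 was Tdgf1, at a distance of 0.07, with 11.28 and 10.43 in Etv2+ cells and 12.45 and 11.71 in Etv2- cells. Next came Cdh11, a mesenchymal cadherin, at 0.09 and Tiam2, an activator of Rac, at 0.11. Nearest to Sall4 were Rab11fip4 at 0.04, the ephrin Efna4 at 0.07 and the Hedgehog co-receptor Boc at 0.08. Nearest to Dppa4 were Tnfaip2 at 0.04, Shank3 at 0.10 and Cbfa2t3, a corepressor of blood precursors, at 0.12, with 8.62 and 8.82 in Etv2+ cells and 7.65 and 8.03 in Etv2- cells.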

How the data were processed

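Per the submitters' processing notes, the authors used RMA and R 2.8.0 to obtain the deposited log2 expression values, 1 for each probe set and array. That the logarithm has base 2 was inferred from their span, 2.16 to 14.93. RMA normalizes arrays to a common distribution, so a shift shared by all genes is removed and differences near background are compressed. Groups and array numbers came from the sample titles. Of 45101 probe sets, 34945 with 1 symbol in the platform annotation, other than controls, were kept, and symbols were checked by Entrez identifier against RefSeq genes of GRCm38.p6. The 18193 genes, each on its brightest probe set, entered a limma 3.58.1 model (R 4.3.3; lmFit, eBayes) with a single term for population, and p-values were adjusted by Benjamini-Hochberg over all genes, with a threshold of 0.05. The fit was tested on simulated data. Arrays of 1 population were not copies of each other. Over all probe sets they differed by a mean absolute value of 0.225 in Etv2+ and 0.218 in Etv2- cells. Same-numbered arrays of the populations differed by less, 0.201 for array 1 and 0.200 for array 2. The members, the further lists, the tests and the rule for named genes (all members, the sort genes, up to 3 genes of smallest p in each pathway list, the extremes of each marker list and the 3 genes nearest Pou5f1, Sall4 and Dppa4) were chosen with earlier results of these data known. Listed genes with no match among the 18193 were not used here. Lin28b, Dnmt3a, Sox1, Sox3, Dppa3 and Prdm14 each stand in 2 of the further lists. Alternatives were every probe set, the mean over probe sets, a mean of at least 6, a trend with robust estimation, quantile normalization, median centring, a block for the array number, and the omission of each array in turn. Figures were drawn with matplotlib 3.10.9.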

Additional observations from a re-analysis of the deposited data

How the results depend on the processing

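Over 12 alternatives, or 11 where a mean of at least 6 left the gene out, Pou5f1, Sox2, Nanog, Sall4, Zfp42, Lin28a and Dnmt3b kept a difference below 0 and Dppa4 one above 0. Several settings, such as the trend, the block and the fit of every probe set, alter the SE and not the difference, so they could not change the sign. Nor could the omission of an array for members whose groups were apart. Without 1 array the difference ran from -1.57 to -0.72 for Pou5f1, from -1.93 to -0.38 for Nanog, from -1.08 to -0.35 for Sox2, from -0.92 to -0.66 for Sall4 and from 0.57 to 1.10 for Dppa4. Esrrb ran from -0.037 to 0.479 and Utf1 from -0.028 to 0.077, so these changed sign. With the mean over probe sets, 2 members were higher at an unadjusted p under 0.05, Dppa4 and Esrrb, against 6.26% of all genes. In the lower direction there were 3, against 4.12%. The Esrrb mean takes in the dim probe sets that disagreed. In fits without 1 array a single array stands for its population and is assumed to vary like the other. Over all genes 66 were called higher and 13 lower among genes with a mean of at least 6, and 81 and 31 with trend and robust estimation. Among the further lists these settings called 3 and 4 endothelial and blood markers higher and, each, 2 streak markers lower, and they called no member. The labels do not say that the array number pairs the samples. Deviations of same-numbered arrays from their group means correlated across genes (r = 0.54), and there are only 2 pairs. With the array number as a block 0 genes were called, and 6 members reached an unadjusted p under 0.05 as lower, as did 8.85% of all genes. The block combined with trend and robust estimation was chosen after seeing the data. It called 616 genes higher and 361 lower, and 3 members lower, Pou5f1 at -1.15, Nanog at -1.15 and Sall4 at -0.79 (limma adjusted p = 0.0153, 0.0235 and 0.0167), with 6 members lower at an unadjusted p under 0.05, beside 9.53% of all genes. In that fit 6 endothelial and blood markers and 1 each of the germ cell, endoderm and sort lists were called higher. It called lower 6 streak, 5 primed epiblast, and 1 each of the naive, paralogue, germ cell, endoderm and stroma lists, and Pdgfra of the sort genes. The cause of these changes was not tested.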
